A study of Mus musculus with 37 samples.

Results

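The 200 transcripts described here are those that rose most in level from the germinal vesicle (GV) oocyte to the 2-cell embryo in mice heterozygous for Cabin1. They were chosen by their measured levels. Of 13565 protein-coding genes in the tables of both stages, with the Zscan4, Obox, Usp17l, Tdpoz and ribosomal protein genes left out by name, they had the highest gain, which is log2(FPKM + 1) of the mean of CabZ Het 2-cell libraries 1 and 2 less the same value for the mean of the 4 CabZ Het GV libraries. FPKM are fragments per kilobase of gene and per fixed number of sequenced reads, here over the whole gene span with introns. The gain ran from 3.15 to 9.61 (median 4.08), and its median over all ranked genes was -0.01. Just inside the list stood Zfp948 (3.17), Prdx6 (3.16) and Tceal8 (3.15), and just outside Klf4, Zfp988 and Gpn3, each at 3.15. The excluded families were not removed completely, since RefSeq now names Gm10697 and Gm9125 as Tdpoz genes.

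The study deleted subunits of the Hira complex in mouse oocytes and asked how this affected the transcripts of oocyte and embryo. All animals were C57BL/6. In the ZH line floxed Hira, and in the CabZ line floxed Cabin1, was removed by a Zp3-Cre transgene, which acts in the growing oocyte. KO oocytes were homozygous and Het oocytes heterozygous. CabZ KO 2-cell embryos lack the maternal product, and it is not stated for these libraries whether they were fertilised or activated without sperm. The libraries named Zscan4 OE and GFP came from 2-cell embryos of wild-type animals whose oocytes had been injected with Zscan4d or GFP RNA, matured and activated without sperm. RNA-seq was available for 4 libraries per group, with 3 for Zscan4 OE, and ATAC-seq peaks for GV oocytes of the CabZ line, with 3 Het and 3 KO libraries. The methods describe pools of oocytes per library, and the number of animals behind the replicates is not given, so p-values measure only the spread between these libraries. Cabin1 had 0.0891 to 0.159 FPKM in CabZ Het and 0.0125 to 0.0482 FPKM in CabZ KO GV libraries, and 0.229 to 0.455 against 0.0640 to 0.181 FPKM at the 2-cell stage, with no overlap. This drop was not particular to the Cabin1 deletion, since Cabin1 was also lower in ZH KO (0.0640 to 0.102 FPKM) than in ZH Het oocytes (0.259 to 0.346 FPKM), and Hira was lower in CabZ KO (0.0147 to 0.0569 FPKM) than in CabZ Het 2-cell embryos (0.193 to 0.268 FPKM). Hira was at 0.00105 to 0.0117 FPKM in ZH Het and 0 to 0.00868 FPKM in ZH KO libraries, too low to check the labels. Zscan4d was at 69.4 to 148.6 FPKM in GFP libraries and at 70.3 to 84.3 FPKM in the libraries labelled Zscan4 OE, so the labelled gain of Zscan4d was not seen at this stage. The other Zscan4 genes examined had lower means in Zscan4 OE libraries, such as Zscan4a (14.4 against 68.1 FPKM) and Zscan4f (91.9 against 231 FPKM). None of them was called by limma. The paper reports higher Zscan4 than in uninjected oocytes by qRT-PCR, immunofluorescence and western blot. Summed over 9 oocyte markers, CabZ GV libraries held 2226 to 3413 FPKM, while the listed granulosa and cumulus markers summed to at most 4.40 FPKM in any library.

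As background, the fully grown oocyte stops transcription and lives on stored maternal RNA. After activation of the egg this RNA is broken down while the genome of the embryo is switched on, a step called zygotic genome activation (ZGA), which in the mouse has its main wave at the 2-cell stage. The genes switched on then include short-lived genes of the 2-cell stage, many of them in tandem families, and housekeeping genes for ribosome biogenesis, protein turnover and metabolism that the growing embryo needs.

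The median member was low in control oocytes but some members were not. It had 0.369 FPKM in CabZ Het GV oocytes, with 133 of the 200 under 1 FPKM and mt-Cytb and Omt2a highest at 848 and 837 FPKM, and 29.4 FPKM in the 2 CabZ Het 2-cell libraries that chose them (range 8.30 to 30477). CabZ Het 2-cell libraries 3 and 4 were not used by the rule, but their gain was taken over the same CabZ Het GV libraries that chose the members. This gain was 2.11 to 9.53 (median 3.92), it was above 1 for all 200, and 178 of them were again among the first 200. The oocyte side of it is thus shared with the choice, and only the 2-cell side is separate. In tables of other animals, 179 members had a value in both GFP 2-cell embryos and ZH Het GV oocytes. Of these, 164 were higher in the embryos, 107 of them over 2-fold on the log2(FPKM + 1) scale, with a median of 1.39 against -0.12 for the 11159 ranked genes in both tables. These 2 tables were normalised separately, so this is a comparison of levels side by side without a test. The members took 0.693 to 0.802% of the reads on genes in CabZ Het GV libraries and 15.9 to 19.8% in CabZ Het 2-cell libraries.

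**Figure D1:**
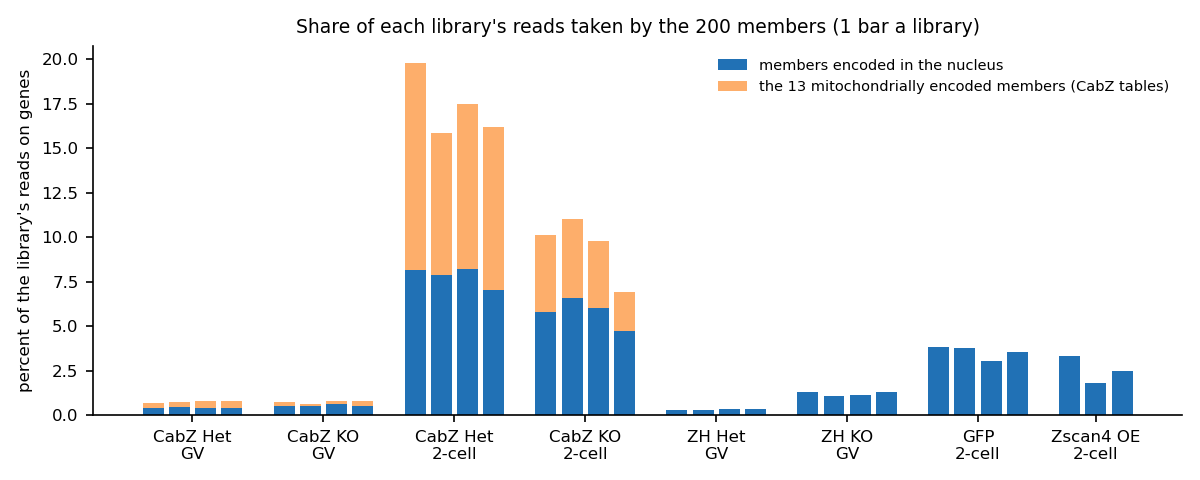
Percent of each library's reads on genes that fell on the 200 members, with 1 bar per library and the groups side by side; blue is nuclear-encoded members and orange the 13 mitochondrially encoded ones, which only the CabZ tables list. The share is below 1% in Het oocytes, 15.9 to 19.8% in CabZ Het and 6.91 to 11% in CabZ KO 2-cell embryos.

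The members were compact genes. Their median span was 4089 bp against 25782 bp over the ranked genes, and 57.0% of them were shorter than 5000 bp against 11.1%. In GENCODE, 18.5% had a single exon in every transcript against 2.49%. A value per kilobase of gene span counts introns as length, which raises short genes relative to long ones, and its part in this excess was not tested. All 13 protein-coding genes of the mitochondrial genome were members. On nuclear chromosomes the members were spread over all autosomes and chromosome X, with 17 on X and 15 on chromosome 12, which is 3.54% and 3.25% of the ranked genes there. Among the members 37 had provisional Gm names. By role they held 18 transcription factors and regulators, 13 endoplasmic reticulum, lysosome and autophagy genes, 11 nucleotide and small-molecule enzymes, 9 Prame family genes, 8 ribosome biogenesis genes, 8 nuclear-encoded mitochondrial proteins, 8 genes of the Eif1a translation initiation factor family and 6 genes of a tandem cluster around AF067061 on chromosome 13. Members of these tandem families are alike in sequence, as are Ftl1 and Ftl1-ps1, and how reads shared between copies were divided is not stated, so the values of single copies are uncertain.

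The steepest gain was that of Mt2, a metallothionein that binds zinc and copper (chr8:94172664-94173569 of GRCm38, plus strand). Its 4 CabZ Het GV libraries had 0.354, 0.398, 0.199 and 0.206 FPKM and its CabZ Het 2-cell libraries 1143, 865, 1037 and 866 FPKM. Gm2001, which lies among the Eif1a-like genes of chromosome 12 (chr12:87841837-87842340, minus strand), went from 0.159, 0.0896, 0 and 0.0929 FPKM to 445, 451, 415 and 270.3 FPKM. The next was Rfpl4b, a RING finger protein gene (chr10:38820541-38821780, minus strand), with 0.324, 0.364, 1.09 and 1.06 FPKM in oocytes and 485, 529.8, 398 and 296 FPKM in embryos. These values chose the genes and are given as a description. Spic, an ETS transcription factor, had 0.0391, 0.0352, 0.0352 and 0.0182 FPKM in oocytes and 71.2, 114, 85.5 and 64.8 FPKM in embryos. Ctsl, the lysosomal protease cathepsin L, had 0.396, 0.296, 0.133 and 0.259 and 118, 114, 111 and 84.8 FPKM, and Nop16, a protein of the nucleolus needed for the large ribosomal subunit, 0.0272, 0.168, 0.0153 and 0.0316 and 61, 101, 116 and 54.9 FPKM. Spic and Nop16 were thus below 0.2 FPKM in every CabZ Het oocyte library. Tceal8, at the lower edge of the list, was uneven in Het embryos, with 7.26, 19.1, 2.54 and 35.1 FPKM.

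**Figure D2:**
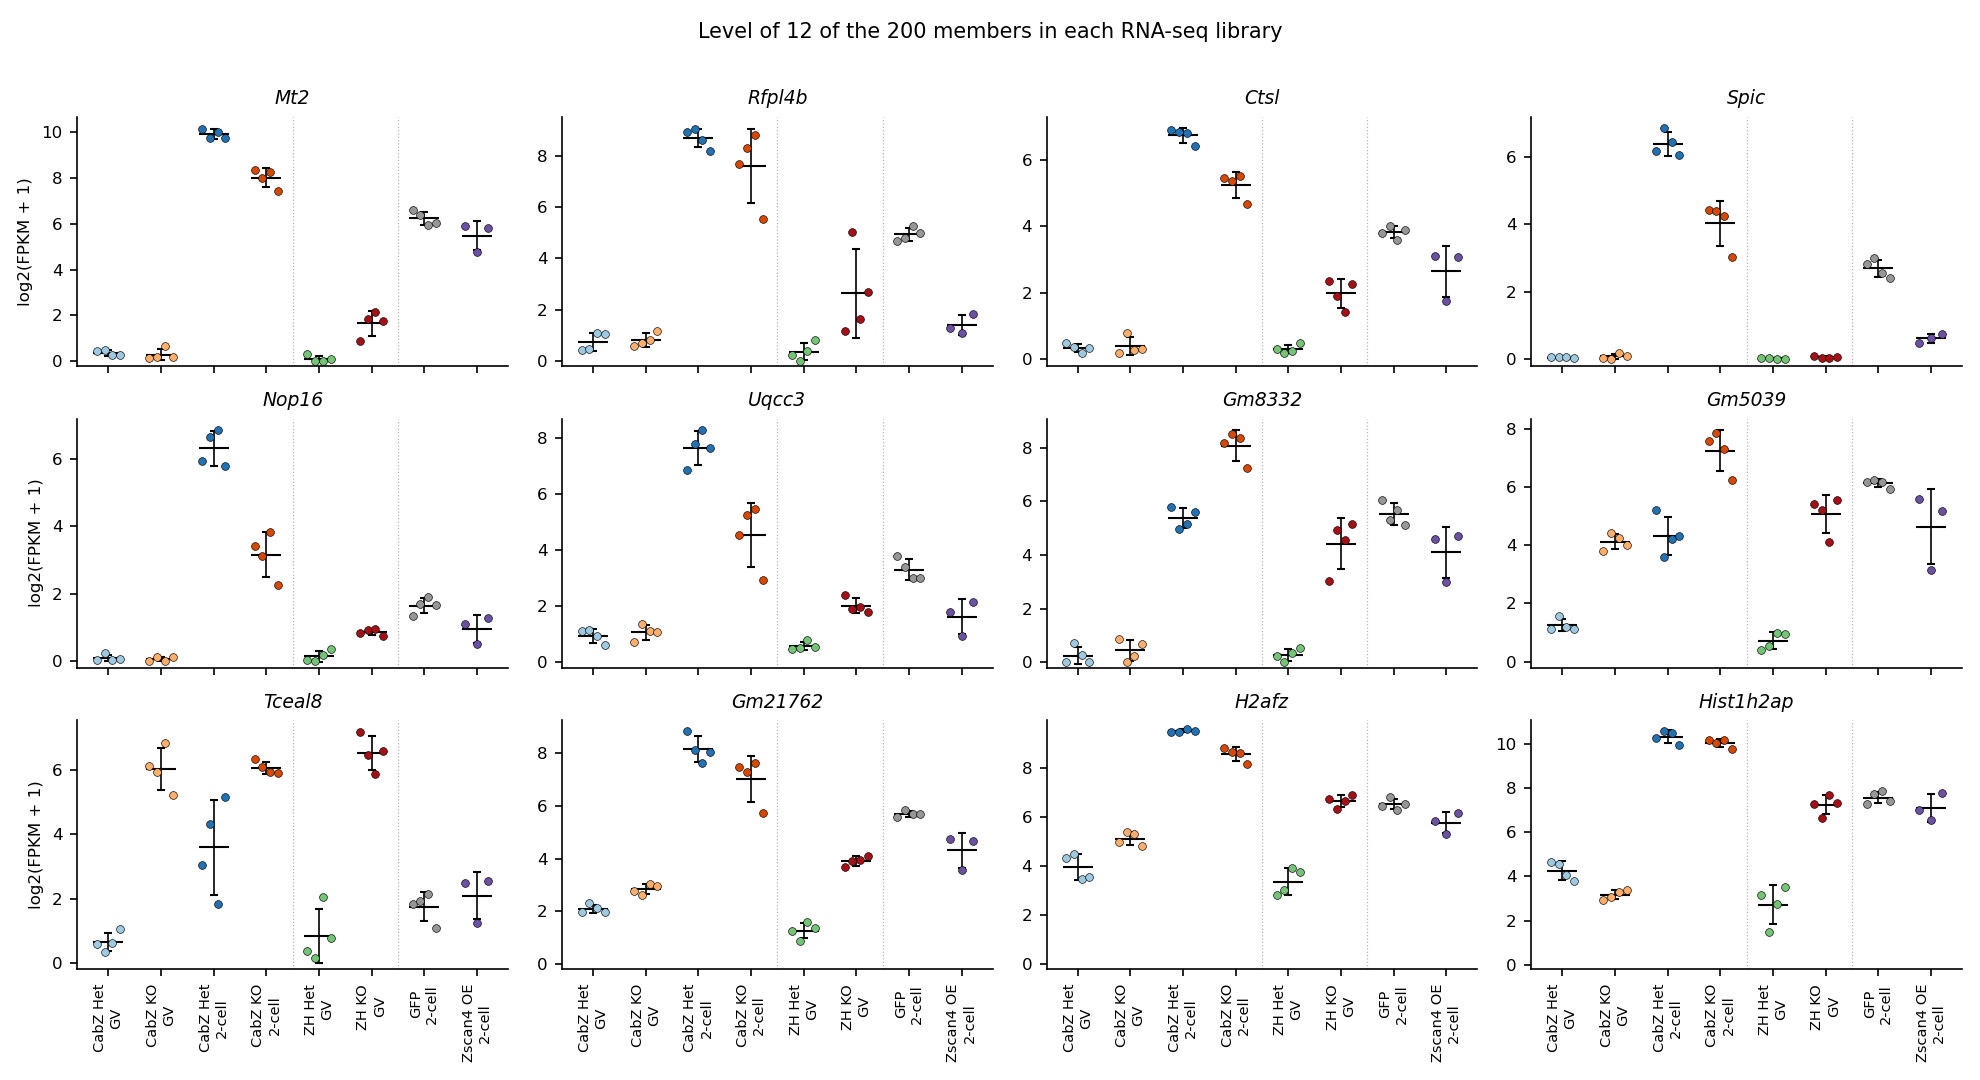
log2(FPKM + 1) of 12 members in each library of the 8 RNA-seq groups, with 1 point per library and the mean ± SD in black; dotted lines part the CabZ, ZH and Zscan4 OE experiments. Spic is near 0 in all GV groups, Nop16 is at most 0.932 FPKM in them, and Tceal8 and Gm5039 are high in the GV oocytes of both KO lines.

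Promoter sequences from RefSeq (GRCm38.p6, 250 bases before and 50 after the start) were matched to 120 members and to 9726 ranked genes. The members' windows had a median GC content of 56.7% against 60.3%, a median of 15.5 against 20 CpG, and 26.7% of them held under 5 CpG against 10.7%. All motifs were searched on both strands. TAATCC, which homeobox proteins of the Obox and Crx kind bind, stood in 23 of the 120 windows (19.2%) against 5.79% of the ranked windows, and outside annotated repeats in 15 (12.5% against 5.14%). TAATCC preceded directly by CCTT, a form chosen after the windows were seen, was found in 11 windows (9.17%) against 24 of 9726 (0.247%). These 11 belonged to AF067061, Zfp352, BB287469, Pramel4, B020004J07Rik, Gm5891, Gm10696, Gm9125, Gm11756, Gm11757 and Gm13871, most of them copies of tandem families and not independent of each other. Shares of the other motifs were closer: TATAAA 9.17% against 7.7%, CCAAT 44.2% against 39.5%, GGGCGG 52.5% against 61.9%, CACGTG 15% against 10%, CCGGAAG 15.8% against 17.9% and TGCGCNC, a form of the metal response element, 17.5% against 26.6%. The looser core TGCNCNC, which every TGCGCNC match also holds, stood in 52.5% against 59.3%, and the ER stress element, which starts with CCAAT, in 0 against 0.185%. A match describes the letters and shows no binding.

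Stretches of 100 bases upstream of the start are shown for 8 members that hold TAATCC, in capitals where it reads on this strand and as GGATTA where it reads on the other, so that the arrays in Zfp352 and AF067061 can be compared with single matches. They lie at chrX:140456503-140456602, plus strand (Prps1), chr13:120262927-120263026, plus strand (AF067061), chr4:90218712-90218811, plus strand (Zfp352), chr12:87816456-87816555, plus strand (BB287469), chr4:144058990-144059089, plus strand (Pramel4), chr17:47400611-47400710, minus strand (Guca1a), chr7:21921385-21921484, minus strand (Gm5891) and chr3:94178234-94178333, minus strand (Gm10696), all written 5′ to 3′ on the strand of the gene.
Zfp352: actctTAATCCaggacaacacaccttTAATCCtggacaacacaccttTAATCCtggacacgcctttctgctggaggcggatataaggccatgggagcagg
AF067061: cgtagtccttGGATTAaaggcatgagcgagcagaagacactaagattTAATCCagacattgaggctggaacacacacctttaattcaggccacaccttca
Gm10696: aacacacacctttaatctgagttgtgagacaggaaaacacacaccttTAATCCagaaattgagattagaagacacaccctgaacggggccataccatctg
Gm5891: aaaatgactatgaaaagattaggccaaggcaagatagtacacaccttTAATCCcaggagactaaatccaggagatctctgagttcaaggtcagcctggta
BB287469: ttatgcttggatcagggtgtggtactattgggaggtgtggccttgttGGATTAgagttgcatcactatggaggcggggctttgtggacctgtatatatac
Pramel4: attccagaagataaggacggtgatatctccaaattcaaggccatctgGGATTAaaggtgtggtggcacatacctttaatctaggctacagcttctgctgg
Prps1: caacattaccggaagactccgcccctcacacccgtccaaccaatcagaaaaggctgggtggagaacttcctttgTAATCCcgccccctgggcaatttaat
Guca1a: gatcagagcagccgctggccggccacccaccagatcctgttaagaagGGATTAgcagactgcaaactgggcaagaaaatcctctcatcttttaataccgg
Zfp352 carries 3 matches and AF067061 2 in opposite directions. In BB287469, Pramel4, Gm5891 and Gm10696 the match lies in bases that RefSeq marks as repeats, and in Prps1 and Guca1a outside them. Of the matches in Zfp352 and in AF067061, at least a part lies outside repeats, which hold 46 and 50 of their 100 bases. Base by base, the windows of AF067061 and Gm10696 were the same at 51 of 100 positions, the most of any pair shown, and those of Prps1 and Zfp352 at 26. The windows of AF067061 and Gm10696 are both centred on a match and so share its bases by the choice of window. In Prps1 the match is off centre.

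The TGCGCNC match of Mt2, the member with the largest gain, is shown in capitals in the 150 bases before its RefSeq start (chr8:94172468-94172617, plus strand). Matches of only the looser core TGCNCNC are left in lower case.
Mt2: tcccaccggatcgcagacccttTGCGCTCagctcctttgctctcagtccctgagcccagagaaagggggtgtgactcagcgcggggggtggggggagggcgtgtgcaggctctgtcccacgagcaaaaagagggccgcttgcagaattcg

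The first question was whether embryos from CabZ KO oocytes reached the same levels. They mostly did not. Against CabZ Het libraries 3 and 4, which the rule did not use, 107 of the 200 members (53.5%) were lower and 10 (5.0%) were higher in the 4 CabZ KO 2-cell libraries by limma (adjusted p under 0.05 over all genes tested and a fold change above 2). Of all 7883 genes tested, 19.9% were called lower and 15.7% higher. With each library shifted to the same median, that split turned to 14% lower and 21.3% higher, while 88 members were lower and 14 higher. The members' median difference was -1.24 on the log2(FPKM + 1) scale, against -0.07 over all genes tested, and the median member had 41.6% of its Het level. The KO mean was lower for 167 members. All KO libraries lay below both Het libraries for 138 members and above them for 14, where 33.7% and 28.0% of all genes tested did so. At an unadjusted p under 0.05, 127 were lower and 14 higher. These are levels relative to the other RNA of pooled embryos, so fewer embryos that switched a gene on and less RNA of it in each embryo cannot be told apart.

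The size of this count rested on few libraries and on the restored FPKM. The deposited CabZ values were read as divided by gene span 2 times, which no source states, and on the values as deposited 12 members were lower and 11 higher, with a median of -0.060, 916 genes being tested in place of 7883. Without CabZ Het replicate 3, when 1 Het library remains and is assumed to vary as the KO libraries do, 15 members were lower and 4 higher, with a median of -1.18. Without CabZ Het replicate 4 the counts were 74 and 9, and without CabZ KO replicate 2 they were 99 and 6. CabZ KO replicate 4 had the lowest median member level of the KO libraries, 3.16 against 3.98 to 4.25 on the log2(FPKM + 1) scale, and without it 95 were lower and 10 higher, with a median of -1.03. Several measures moved with the genotype, and their part in the result was not tested. Reads on genes were 7946370 to 8236320 in Het and 5818060 to 6329150 in KO libraries. Mitochondrial genes took 8.99 to 12.9% of them in Het and 2.48 to 5.09% in KO libraries. The 9 oocyte markers summed to 120.0 to 188.6 FPKM in Het and 288 to 537 FPKM in KO embryos, and of 16 genes tested in the longer list of oocyte markers 8 were higher and 0 lower in KO. The 7 markers of the 2-cell stage, of which Gm5662, Gm8300 and Zfp352 are members, were mixed: over all 4 libraries a group, Tcstv1 averaged 154 FPKM in KO against 82.4 FPKM in Het embryos, and Sp110 14.3 against 25.3 FPKM. Summed, these 7 markers held 385 to 541 FPKM in Het and 547 to 1177 FPKM in KO libraries. With reads scaled without the mitochondrial genes, an alternative chosen after seeing the data, 110 members were lower and 8 higher.

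**Figure D3:**
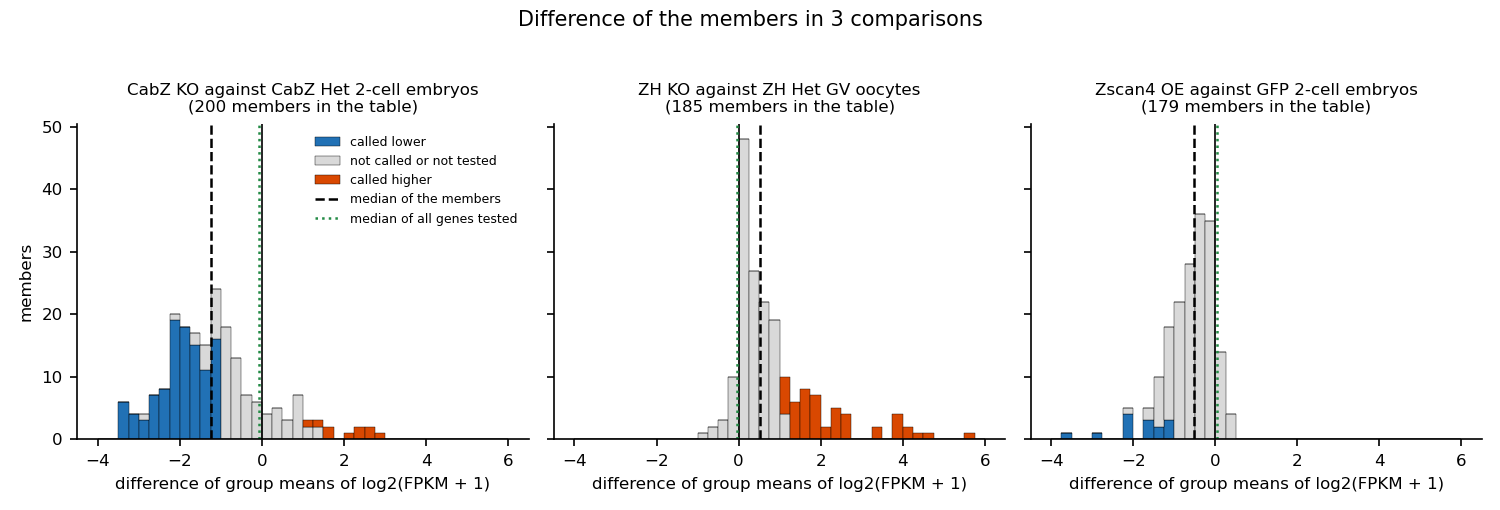
Number of members by the difference of group means of log2(FPKM + 1) in the 3 tested comparisons; blue bars were called lower and orange bars higher, grey bars were not called or not tested, the dashed line is the median of the members and the dotted line that of all genes tested. The members' medians are -1.24, 0.52 and -0.51, whereas the medians of all genes tested are within 0.07 of 0.

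Genes for making ribosomes stood lowest. Of the 8 ribosome biogenesis and RNA polymerase I members 7 were lower, with a median of -2.40. Nop16 had 9.71, 7.62, 13.3 and 3.81 FPKM in KO libraries against 116 and 54.9 in the Het libraries of the test (log2 difference -3.18, SE 0.49, adjusted p = 0.0046, limma). Znhit3, a factor in the assembly of small nucleolar RNA particles, had 32.7, 23.4, 41.4 and 18 against 336 and 234 FPKM (log2 difference -3.30, SE 0.36, adjusted p = 0.0034, limma). No KO library of either gene reached a Het library. Utp23 (-2.75), Mak16 (-2.43) and Polr1c (-2.38), a subunit of RNA polymerases I and III, were also lower, C1d less so (-1.03). The wider list of rRNA processing genes, chosen with earlier results known, had 76 genes tested, 5 of them members. Of these, 49 were lower and 0 higher, with a median of -1.30 (limma, the same thresholds).

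Nuclear genes for mitochondrial proteins were lower in 7 of 8 cases (median -1.91). Uqcc3, which assembles respiratory complex III, had 22.4, 36.7, 42.5 and 6.55 FPKM in KO against 312 and 196 FPKM in Het embryos (log2 difference -3.42, SE 0.69, adjusted p = 0.0087, limma). Tomm5 and Tomm20, parts of the import pore of the outer membrane, were lower as well (Tomm5 -2.21, adjusted p = 0.0091, limma), and so were Gcsh of the glycine cleavage system (-1.82) and Mrps34 of the mitochondrial ribosome (-1.74). The exception was Fundc1, a mitophagy receptor, at 19.1, 25, 27.7 and 18.2 against 17.2 and 25.3 FPKM, where the groups overlapped. Among 70 mitochondrial ribosomal protein genes tested, 1 of them a member, 34 were lower and 2 higher (median -1.07).

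The transcripts of the mitochondrial genome itself were lower in 9 of 13 cases, with a median of -1.17. mt-Nd4, a subunit of complex I, had 1421, 1230.0, 1064 and 593 FPKM in KO against 4978 and 4762 FPKM in Het embryos (log2 difference -2.25, SE 0.37, adjusted p = 0.0050, limma), and mt-Nd5 592, 489.6, 488 and 274 against 2033 and 2334 FPKM (log2 difference -2.29, SE 0.33, adjusted p = 0.0043, limma). Neither gene's groups overlapped. The complex IV subunits did not pass the test: mt-Co1 had 4712, 5417, 3752 and 2809 against 6210.2 and 6497 FPKM (-0.65, adjusted p = 0.12, limma). mt-Co2 (-0.30) and mt-Co3 (-0.43) overlapped between the groups. Mitochondrial genes were analysed in the CabZ tables only.

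Metabolic and protein-handling genes followed the same direction. Of the 11 nucleotide, polyamine and small-molecule enzymes 9 were lower and all 11 had a lower mean. Prps1, which makes the precursor of nucleotides, had 28.6, 26.8, 43 and 16.7 FPKM in KO against 103 and 92.9 FPKM in Het embryos (log2 difference -1.81, SE 0.36, adjusted p = 0.0084, limma), and Dnph1, a nucleotide hydrolase, 0.235, 0.164, 1.52 and 0.236 against 16.9 and 9.62 FPKM (log2 difference -3.24, SE 0.39, adjusted p = 0.0037, limma), the lowest share of the Het level among the members (4.06%). The groups of both genes were apart. In the endoplasmic reticulum, lysosome and autophagy group 11 of 13 were lower (median -1.66), among them the autophagy protein Map1lc3b with 56.8, 55.2, 75.8 and 30.9 against 395 and 251 FPKM (log2 difference -2.57, SE 0.38, adjusted p = 0.0045, limma). Selenos, a selenoprotein of the endoplasmic reticulum (-2.19), the chaperone Dnajb9 (-1.51) and Ctsl (-1.36) were lower too. In the ubiquitin and proteasome group 6 of 9 were lower (median -1.71), and in a list of 42 proteasome and ubiquitin genes tested, none of them members, 21 were lower and 2 higher.

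Genes for RNA processing, translation and the cell cycle gave similar counts. Of 8 mRNA processing and transcription members 6 were lower, including the poly(A)-binding protein Pabpn1 (74.5, 55.8, 76.1 and 27.6 against 184 and 128 FPKM, log2 difference -1.48, SE 0.44, adjusted p = 0.031, limma) and Lsm8 of the U6 particle (-1.75). Of 5 translation members 4 were lower. Mcts2, a retrogene for a translation re-initiation factor, was uneven among KO libraries, with 43.3, 3.33, 11.6 and 37.9 FPKM against 199 and 142 FPKM (log2 difference -3.27, SE 0.91, adjusted p = 0.025, limma). In the cell cycle, apoptosis and stress group 9 of 13 were lower. They included Ccne1, which drives entry into S phase (-1.79), and Gadd45a (-1.18). Cdkn1a, a cell cycle inhibitor, missed the threshold (11.5, 4.34, 4.24 and 1.74 against 14.9 and 12.6 FPKM, -1.40, adjusted p = 0.072, limma). Gtsf1l, a relative of a germline piRNA factor, had 8.33, 5.83, 7.88 and 9.62 against 103 and 77.8 FPKM (log2 difference -3.36, SE 0.26, adjusted p = 0.0025, limma). It was tight within both groups.

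Mt2 itself, first in gain, was lower, with 325, 256, 304 and 169.9 FPKM in KO against 1037 and 866 FPKM in Het embryos (log2 difference -1.88, SE 0.31, adjusted p = 0.0051, limma). The KO libraries stayed well above every oocyte library but below both Het embryo libraries. The next in gain did not pass the test: Gm2001 had 190.2, 218, 224 and 95.9 against 415 and 270.3 FPKM (-0.95, adjusted p = 0.091, limma) and Rfpl4b 205, 321, 455 and 45.9 against 398 and 296 FPKM (-0.83, adjusted p = 0.45, limma). Rfpl4b overlapped between the groups. Of the 18 transcription factors and regulators 9 were lower, among them Spic (20.5, 20.1, 18 and 7.15 against 85.5 and 64.8 FPKM, log2 difference -2.21, SE 0.43, adjusted p = 0.0080, limma) and Dppa4, a chromatin factor of early embryos (-2.17). Zfp352, a zinc finger gene of the 2-cell stage with 3 TAATCC matches upstream, did not pass the test, at 52.1, 43.3, 56.3 and 17.1 against 26.2 and 39.5 FPKM (0.25, adjusted p = 0.70, limma). Platr17, named as a pluripotency-associated transcript, had the largest fall, to 1.55, 2.49, 4.5 and 0 from 26.9 and 29.6 FPKM (log2 difference -3.46, SE 0.62, adjusted p = 0.0061, limma).

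The Eif1a-like genes went the other way. Eif1a itself, a translation initiation factor, was lower (9.14, 9.12, 9.44 and 5.83 against 18.1 and 18.3 FPKM, log2 difference -1.05, SE 0.25, adjusted p = 0.015, limma), whereas 5 of the 7 genes related to it, on chromosome 12, were higher. Gm5039 (chr12:88320122-88324027, minus strand) had 193, 232, 159 and 74.2 FPKM in KO against 17.5 and 18.9 FPKM in Het embryos (log2 difference 2.99, SE 0.45, adjusted p = 0.0045, limma). Gm8332 (chr12:88249666-88250101, minus strand) had 292, 369, 329 and 153 against 34.6 and 47.3 FPKM (log2 difference 2.72, SE 0.39, adjusted p = 0.0042, limma). Every KO library of both genes was above both of these Het libraries. RefSeq lists both as pseudogenes. Gm8300 (183, 265, 173 and 82.6 against 22.1 and 42.9 FPKM), BB287469 (2.28) and Gm21936 (2.05) were higher, and Gm2016 (0.11, adjusted p = 0.83, limma) and Gm5662 (0.89, adjusted p = 0.17, limma) did not pass. In a list of 2-cell-stage genes with 38 tested, 10 of them members, 9 were higher and 2 lower, with a median of 0.21.

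Outside this family 5 members were higher. Tceal8, a transcription elongation factor-like gene (chrX:136168984-136172343, minus strand), had 79.7, 67.1, 60.6 and 58.7 FPKM in KO against 2.54 and 35.1 FPKM in Het embryos (log2 difference 2.57, SE 0.80, adjusted p = 0.036, limma). Its KO values were close together and its Het values were not. Ftl1-ps1, a copy of the ferritin light chain gene, had 309, 429, 359.8 and 411 against 270.2 and 126 FPKM (log2 difference 1.02, SE 0.34, adjusted p = 0.046, limma), and Ftl1, which shares reads with it, just missed (1.03, adjusted p = 0.058, limma). The peptide hormone gene Adm (1.61), Gm9046 (1.59) and Gm11236 (1.33) were also called. Other groups were mostly not: 2 of 6 histone and chromatin members, 3 of 9 Prame family members and 1 of 6 genes of the chromosome 13 cluster were lower and none higher. Hist1h2ap, a replication-dependent H2A gene, had 1143, 1040.0, 1136 and 878 against 1436 and 984 FPKM and overlapped between the groups.

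**Figure D4:**
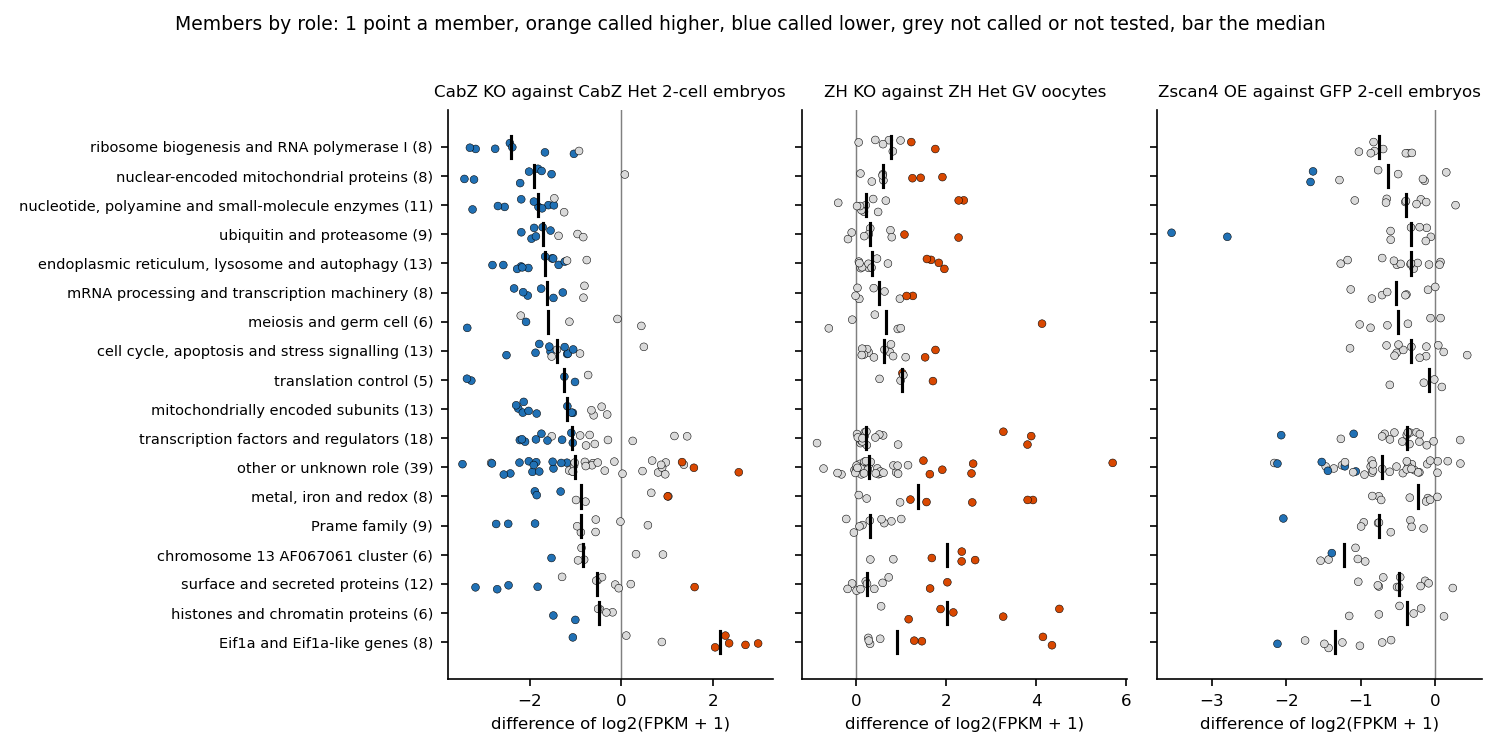
Difference of group means of log2(FPKM + 1) for each member by role, in the 3 tested comparisons, with 1 point per member, orange called higher, blue called lower, grey not called or not tested and a bar at the median; the number of members stands in parentheses. The groups at the top lie below 0 in CabZ KO 2-cell embryos (ribosome biogenesis median -2.40), the Eif1a family lies above it (median 2.17), and the mitochondrially encoded genes appear only there.

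The second comparison asked whether members were already present in oocytes that lack Hira. Of the 200 members 185 were in the ZH table, and 109 of these were below the mean of 1 FPKM that the test required. By limma, 49 of the 185 (26.5%) were higher and 0 lower in ZH KO GV oocytes. Of all 5792 genes tested, 10.5% were called higher and 7.2% lower. At an unadjusted p under 0.05, 63 members were higher and 2 lower. The KO mean was higher for 169 of the 185 members, and the median difference was 0.52 against -0.04 for all genes tested. All 4 KO libraries lay above all 4 Het libraries for 118 of the 185, where 23.7% of all genes tested did so. These member values and the 26.5% include the 109 below the filter, whereas those of all genes are for genes tested only. Without the filter 48 of the 185 were higher, against 2.67% of 25053 genes. A gene that is near 0 in Het oocytes passes the filter only if it is high in KO oocytes, and 24 of the 49 called genes had a Het mean under 1 FPKM. In all, the members took 0.281 to 0.363% of reads in ZH Het and 1.08 to 1.29% in ZH KO libraries. Other markers moved with the genotype. The 9 oocyte markers summed to 2519 to 2949 FPKM in ZH Het and 1038 to 2077 FPKM in ZH KO oocytes, with 5 of 18 genes tested in the longer list lower, among them Bmp15 (-2.16) and Oosp1 (-1.96), and 1 higher. The granulosa and cumulus markers summed to 0.381 to 0.679 and 1.00 to 2.05 FPKM, with Inha at a mean of 0.135 and 1.2 FPKM and with Foxl2 and Has2 at 0 in all KO libraries. The part of these in the result was not tested. The count was 46 to 54 when any 1 library was left out. With each library shifted to the same median, 45 were higher, and of all genes 471 were higher and 627 lower in place of 606 and 417.

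Tceal8 changed most, with 146, 88, 58.1 and 96.3 FPKM in ZH KO against 0.30, 0.116, 3.16 and 0.703 FPKM in ZH Het oocytes (log2 difference 5.70, SE 0.41, adjusted p = 9.4e-06, limma). Gm5039 had 41.3, 36.1, 16.3 and 45.7 against 0.313, 0.459, 0.958 and 0.945 FPKM (log2 difference 4.35, SE 0.30, adjusted p = 7.4e-06, limma), and Gm8332 7.19, 29.8, 22.7 and 34.6 against 0.165, 0, 0.26 and 0.452 FPKM (log2 difference 4.15, SE 0.40, adjusted p = 4.9e-05, limma). All 3 genes were far apart between the groups, and the same 3 were also higher in CabZ KO embryos. Of the other Eif1a-like genes, Gm5662 was called (0.185, 3.42, 4.08 and 1.22 against 0, 0, 0.0176 and 0 FPKM, log2 difference 1.46, SE 0.39, adjusted p = 0.012, limma). Eif1a itself was higher here (2.05, 1.63, 1.91 and 1.96 against 0.0632, 0.0995, 0.246 and 0.31 FPKM, 1.29, adjusted p = 3.7e-05, limma). Gm5039, Gm8332, Gm5662 and Eif1a were below 1 FPKM in every ZH Het library, so they were tested only because their KO values were high. Gm8300, Gm21936, Gm2016 and BB287469 reached at most 1.34 FPKM in any ZH library.

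By role, the calls held 5 histone and chromatin genes, 5 metal, iron and redox genes and 1 meiosis and germ cell gene. All 5 histone and chromatin members tested were higher. Of all 76 members tested, 64.5% were called higher, and the filter favours members that are high in KO oocytes. H2afz, the variant H2A.Z, had 105, 78, 98.4 and 117 FPKM in KO against 6.01, 7.16, 13.9 and 12.3 FPKM in Het oocytes (log2 difference 3.27, SE 0.25, adjusted p = 1.4e-05, limma), and Hist1h2ap 155, 100.5, 205 and 159 against 7.96, 1.77, 5.73 and 10.5 FPKM (log2 difference 4.52, SE 0.40, adjusted p = 3.1e-05, limma). In both genes every KO library was far above every Het library. Ftl1, the iron store protein, had 628, 557, 574 and 704 against 39.7, 30.4, 39.3 and 50.3 FPKM (log2 difference 3.93, SE 0.16, adjusted p = 7.2e-07, limma), and Sycp3, part of the meiotic chromosome axis, 79.4, 47.5, 60 and 52.4 against 1.99, 1.94, 2.7 and 3.12 FPKM (log2 difference 4.13, SE 0.18, adjusted p = 1.1e-06, limma). Neither gene's groups overlapped. The inhibitors of differentiation Id1 (29.8, 32.1, 25 and 21.3 against 1.12, 1.34, 0.468 and 0.679 FPKM, 3.89) and Id2 (3.81) and the Notch target Hes1 (7.97, 11.4, 8.92 and 8.79 against 0.0421, 0.0913, 0.053 and 0.0288 FPKM, 3.27) were higher as well. Hes1 was below 1 FPKM in every ZH Het library, so it was tested only because its KO values were high. The Het mean of Id1 was also under 1 FPKM, so Id1 passed the filter only through its KO values.

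In the chromosome 13 cluster 4 of 6 genes were higher, and these 4 were the only ones tested. Gm21762 had 11.8, 14.2, 14.4 and 16.3 against 1.36, 0.842, 2.0 and 1.57 FPKM (log2 difference 2.65, SE 0.17, adjusted p = 4.6e-06, limma), and B020031M17Rik 0.973, 13.8, 7.69 and 4.6 against 0.248, 0.161, 0.208 and 0.204 FPKM (log2 difference 2.35, SE 0.50, adjusted p = 0.0036, limma). The first was even among KO libraries, the second spread over more than 10-fold. Rfpl4b was also uneven, at 1.24, 32, 2.07 and 5.5 FPKM in KO libraries (2.28, adjusted p = 0.021, limma). Its Het mean was under 1 FPKM, so Rfpl4b too passed the filter only through its KO values. Mt2, at most 0.238 FPKM in ZH Het libraries, had 0.848, 2.62, 3.5 and 2.35 FPKM in ZH KO libraries (1.57, adjusted p = 7.2e-04, limma), still far under its level in any embryo. Like B020031M17Rik, it was below 1 FPKM in every ZH Het library and was tested only because its KO values were high. Spic, Nop16 and the Prame genes stayed under the filter: Spic had 0.0122 to 0.0689 FPKM and Nop16 0.683 to 0.932 FPKM in ZH KO oocytes. Dppa4, also under it, had 0.323, 0.473, 0.319 and 0.521 FPKM in KO against 1.45, 1.8, 1.41 and 1.6 FPKM in Het oocytes, one of the 7 members with all KO libraries below all Het libraries.

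CabZ Het GV oocytes chose the members, so CabZ KO GV oocytes are described without a test. The KO mean was higher for 121 members and lower for 79, the median difference was 0.04, and 11 members were over 2-fold higher and 9 over 2-fold lower on the log2(FPKM + 1) scale, which 0.568% and 0.288% of the ranked genes were. The highest was Tceal8, with 69.2, 60.1, 114 and 36.6 FPKM in KO against 0.501, 0.268, 0.537 and 1.06 FPKM in Het oocytes, then Gm5039 (13.1, 20.5, 17.8 and 15.1 against 1.19, 1.94, 1.29 and 1.2 FPKM). Gm8332, in contrast, stayed at 0.813, 0, 0.188 and 0.584 FPKM. Ftl1 and Ftl1-ps1 were among the 11, Ftl1 with 194, 171, 212 and 197 against 58, 64.6, 52 and 51.1 FPKM. Gtsf1l had 19.3, 25.3, 34.5 and 38.2 against 5.66, 3.84, 3.4 and 5.11 FPKM in oocytes, the opposite of its order in embryos. Gm21731, Mcts2, Sat1, Hes1, Gm6176 and H2afz completed the 11. Of the 9 lower members 6 were mitochondrially encoded, among them mt-Nd4 (55, 35.9, 46.5 and 66.1 against 98.2, 114, 128 and 149.6 FPKM), and the others were the small heat shock protein Hspb1, Hist1h2ap and Aprt.

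The third comparison asked what Zscan4 RNA did to these genes at the 2-cell stage. That table held 179 members, and 129 of them passed the filter. By limma, 14 (7.82% of the 179) were lower in the libraries labelled Zscan4 OE and 0 higher, where 1.42% of the 4293 genes tested were called lower and 0.0233% higher. At an unadjusted p under 0.05, 79 members were lower and 0 higher. The mean was below that of GFP libraries for 161 of the 179, with a median difference of -0.51 against 0.03 for all genes tested, and the median member had 56.4% of its GFP level. All 3 Zscan4 OE libraries lay below all 4 GFP libraries for 78 of the 179, where 10.5% of all genes tested did so. These member values and the 7.82% include the 50 below the filter, whereas those of all genes are for genes tested only. Without the filter 4 of the 179 were lower, against 0.0315% of 15854 genes. A member that is low in Zscan4 OE embryos can pass the filter through the GFP libraries, and 16 of the 129 had a Zscan4 OE mean under 1 FPKM, Pramel4 and Spic among them. Zscan4 OE replicate B had the lowest median member level, 1.12 against 1.51 and 1.99 on the log2(FPKM + 1) scale. Without it 6 members were lower and the median was -0.35, and without replicate C 22 were lower. Without Zscan4 OE replicate A or GFP replicate A or B 4 were lower, without GFP replicate C 6 and without GFP replicate D 7.

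Rfpl4b fell most, to 1.41, 1.13 and 2.55 FPKM from 24.6, 26.8, 37.8 and 31.2 FPKM in GFP embryos (log2 difference -3.54, SE 0.22, adjusted p = 3.2e-04, limma). Pramel4, of the Prame family, fell to 0.0931, 0.26 and 0.0536 FPKM from 3.07, 3.53, 4.16 and 3.92 FPKM (log2 difference -2.04, SE 0.15, adjusted p = 5.3e-04, limma), and Spic to 0.391, 0.557 and 0.677 FPKM from 5.99, 6.96, 4.9 and 4.25 FPKM (log2 difference -2.07, SE 0.18, adjusted p = 0.0015, limma). The 3 Zscan4 OE libraries were close together for these genes on the log2(FPKM + 1) scale, which narrows the spread of low values. In FPKM they ran from 0.0536 to 0.26 for Pramel4 and from 1.13 to 2.55 for Rfpl4b. Among the neighbours on chromosome 12, Gm2001 (5.22, 4.56 and 20.4 against 71.6, 68.1, 61.3 and 48.6 FPKM, -2.79, adjusted p = 0.022, limma) and Gm2016 (5.01, 4.37 and 16 against 38.8, 29.8, 38.2 and 32.2 FPKM, -2.12, adjusted p = 0.029, limma) were lower, and all 8 Eif1a family members had a lower mean, with 1 called. The chromosome 13 gene Gm21762 (26.1, 10.8 and 24.1 against 46.6, 56.3, 51.3 and 51.3 FPKM, -1.39, adjusted p = 0.047, limma) and the chromosome 7 genes Gm5890, Gm5891, Gm6176 and Gm6902 were lower too, Gm5890 with 7.21, 3.52 and 15.3 against 34.7, 58.7, 29.5 and 26.9 FPKM (-2.12, adjusted p = 0.047, limma). Fundc1 (6.16, 3.13 and 8.17 against 22, 22.2, 15.3 and 18.1 FPKM, -1.64, adjusted p = 0.025, limma) and Uqcc3 (-1.67) were the mitochondrial genes, and Hesx1 (-1.09) and Gm9125 (-1.06) completed the 14. All 8 ribosome biogenesis members had a lower mean, with a median of -0.75, while 42 genes tested of the wider rRNA processing list had a median of 0.02.

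Calls were then compared across experiments. Of the 10 higher in CabZ KO embryos 4 (40%) were also higher in ZH KO oocytes, namely Gm8332, Gm5039, Ftl1-ps1 and Tceal8, which is 8.16% of the 49, where 5.0% of all members were higher in CabZ KO embryos. Of the 107 lower in CabZ KO embryos 23 (21.5%) were higher in ZH KO oocytes, 46.9% of the 49, where 53.5% of all members were lower in CabZ KO embryos, so the share is near the background. Among them were Mt2, Ctsl, Selenos, Dnajb9, Znhit3 and C1d. Lower in both CabZ KO and Zscan4 OE embryos were Spic, Uqcc3 and Pramel4, 2.8% of the 107 and 21.4% of the 14. Of the members in each table, 7.82% were lower in Zscan4 OE and 53.5% in CabZ KO embryos, so both shares are below the background. Uqcc3 was the 1 member called in all 3 comparisons, lower in both sets of embryos and higher in ZH KO oocytes (4.26, 2.71, 2.87 and 2.48 against 0.392, 0.424, 0.723 and 0.429 FPKM, log2 difference 1.44, SE 0.15, adjusted p = 8.7e-05, limma). It was below 1 FPKM in every ZH Het library, so it was tested there only because its KO values were high. No comparison called 53 of the members. The 3 comparisons share no library, and whether their differences differ from each other was not tested.

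In ATAC-seq of CabZ GV oocytes, the members were compared with the ranked genes by their promoter peaks. A peak over the start ± 500 bp was called at 19, 37 and 63 of the 187 nuclear members in Het libraries A, B and C (10.2%, 19.8% and 33.7%) and at 26, 6 and 4 in KO libraries A, B and C (13.9%, 3.21% and 2.14%). Over the ranked genes the shares were 12%, 24.7% and 44.7% in Het and 18.1%, 5.49% and 7.25% in KO libraries, so the members were below the background in each library. The number of peaks called also differed between libraries, 43399 to 111327 in Het and 19160 to 46070 in KO, read depth is unknown, and its part in the difference was not tested. At least 1 library had a peak at 79 members and none at 108 (57.8% against 45.8% of the ranked genes). All 3 Het and no KO library had one at 3 members (1.6% against 2.16% of the ranked genes), Ctsl, Map1lc3b and Fcgr3, the gene of an Fc receptor, where the fold enrichment over the genome background was 4.33, 6.18 and 5.28 for Ctsl in Het libraries A, B and C. Mt2 had a peak in all 3 Het libraries and 1 KO library, whereas Gm8332 and Tceal8 had none in any library. No member had a peak in all 3 KO libraries and no Het library. With peaks of -log10 q of at least 10, 0 to 2 members remained in each library.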

How the data were processed

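RNA-seq values of 31 libraries in 4 tables and ATAC-seq peaks of 6 libraries were used, in groups read from the titles and source names of the samples. Per the methods, the authors amplified cDNA with Smart-seq2, trimmed the reads, aligned them to GRCm38 with STAR 2.5.3a and quantified genes in Partek Flow. Of the tables, those for ZH and Zscan4 OE were deposited by the authors as FPKM over the whole gene span, with 0.01 or 0.001 added. The CabZ tables were deposited by the authors without a stated unit and are called score values. From the values, they were read as divided by gene span 2 times and increased by 0.01, which no source states. FPKM were restored from these by subtracting 0.01, multiplying by the span and scaling to the reads of the table. The authors called ATAC-seq peaks per library with MACS2 after alignment with Bowtie2 2.3, and the deposited peak lists give a fold enrichment ratio and -log10 q at each summit.

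Depth was read from the smallest step between values. Reads on genes were 5818060 to 21863400 per library, and 80.0 to 88.6% of low values per library lay within 0.1 of a whole read, too few for a count test. The precision this depth gives covers counting error only.

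Tests were made with limma 3.58.1 (R 4.3.3) on log2(FPKM + 1), over each whole table for genes whose mean over the fitted libraries reached 1 FPKM, two-sided, with Benjamini-Hochberg adjustment and without a replicate block. A call needed a more than 2-fold change with an adjusted p below 0.05, as in the study, whose own test (Partek GSA) was not run. Fold changes are on the log2(FPKM + 1) scale, which understates changes of low genes. The fit was run on simulated data with the same spread for all genes and with changes only in genes above 10 FPKM. This setting differs from that of members near 0 FPKM, so it does not check the fit for them. Replicate numbers were not taken as pairs. Alternatives were other pseudocounts, filters and scalings, a replicate block, a trend in the variance and each library left out. Members, roles and gene lists were chosen with earlier results of these data known. Genes are named if they are among the 20 with the largest gain, the 6 largest calls per direction that did not overlap and averaged 10 FPKM or more, the 12 with the largest gain of those called in more than 1 comparison, the 3 on either side of the edge, or up to 3 members of each gene list; those named beyond this rule were chosen after their values were seen. Sequences and motifs are from RefSeq on GRCm38.p6, and exon numbers are from GENCODE on GRCm38. Other steps used Python 3.11.15, numpy 2.4.6, pandas 2.3.3 and matplotlib 3.10.9.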

Additional observations from a re-analysis of the deposited data

Results flagged for a closer look

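In 164 groups of 4 libraries, 1 library far from the other 3 was looked for by Dixon's criterion on the log2(FPKM + 1) values of the genes with the largest calls and on the read shares and median level of the members, and 4 were found, where chance finds about 1 in 20. Gm5039 had 1.19, 1.94, 1.29 and 1.2 FPKM in CabZ Het GV replicates 1 to 4, and replicate 2 stood apart (gap over range 0.846). Gm21936 had 0.576, 0.752, 0.741 and 0.768 FPKM in CabZ KO GV replicates, with replicate 1 below the others (0.863). Uqcc3 had 0.392, 0.424, 0.723 and 0.429 FPKM in ZH Het GV replicates, with replicate 3 above the others (0.877). Gm2001 had 445, 451, 415 and 270.3 FPKM in CabZ Het 2-cell replicates, with replicate 4 below the others (0.839).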

How the results depend on the processing

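No call of a named gene and no median of the members changed direction under the alternatives tried, but the split of all genes did. The direction of named genes without a call was not compared. In CabZ KO embryos (10 members higher, 107 lower, median -1.24), 6 were higher at a pseudocount of 0.1, and without a filter 5 were higher and 69 lower. On the values as deposited 12 were lower and the median was -0.060; the cause was not tested. With each library shifted to the same median 14 were higher and 88 lower, while the median over all genes went from -0.07 to 0.19 and the calls over all genes from 1236 higher and 1567 lower to 1680 and 1101. Leaving out 1 library gave 4 to 10 higher and 15 to 115 lower. In ZH KO oocytes (49 higher, 0 lower, median 0.52), 25 were higher when the filter was set at 5 FPKM, where fewer genes are tested, and 2 were lower without a fold threshold; the median was 1.30 at a pseudocount of 0.1, 0.37 with shifted libraries and 0.71 with FPKM scaled to the reads in the table. In Zscan4 OE embryos (14 lower, median -0.51), 9 were lower at a pseudocount of 0.1 (median -0.88) and 4 without a filter, and 4 to 22 with 1 library left out. Of named calls, 4 of 36 in CabZ embryos, 22 of 25 in ZH oocytes and 1 of 8 in Zscan4 OE embryos (Rfpl4b) kept their side of the threshold in every alternative. The Het promoter count (median of libraries 37) was 0 with -log10 q of at least 10. The deviations of same-numbered libraries had correlations of mixed sign (-0.41 to 0.40), which do not settle whether the numbers are pairs, and they were not taken as pairs. With a replicate block 5 members were higher and 98 lower in CabZ embryos, 49 higher in ZH oocytes and 1 lower in Zscan4 OE embryos. With 2 Het and 4 KO libraries, and with members near 0 FPKM in oocytes, depth and number limit what could be called.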
